A study of Mus musculus with 8 samples.

Results

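The 46 genes described here encode the secreted and membrane-bound metalloproteases that cut the extracellular matrix and their tissue inhibitors. They were taken by symbol from a table of 55401 mouse genes: 23 matrix metalloproteases (Mmp genes), 19 ADAMTS proteases (a disintegrin and metalloprotease with thrombospondin motifs) and 4 tissue inhibitors of metalloproteases (Timp genes). RNA was sequenced from the cortex of bone, its compact outer layer, of C57BL/6J mice. The 4 KO libraries came from UbcCre/ERT2 Ripk4fl/fl mice and the 4 control libraries from Ripk4fl/fl mice, so that by the genotype label all 8 carried floxed alleles of Ripk4, a receptor-interacting serine/threonine kinase. The control titles and the extraction protocol call the controls WT. UbcCre/ERT2 is a Cre recombinase driven by the broadly active ubiquitin C promoter and dependent on a drug that binds its modified estrogen receptor, so that recombination is not restricted to bone cells. The samples are labelled 4 weeks, which may be the mice's age or the interval since induction, and the sources used here name no inducing drug. Nor do they say that the replicates were separate animals, so that p-values measure only the spread between these libraries.

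As background, most of these proteases are made as inactive proenzymes held shut by a propeptide, which furin-type convertases, plasmin or other metalloproteases remove. Collagenases cut the triple helix of fibrillar collagen, gelatinases take up the denatured fragments, and membrane-type enzymes act at the cell surface and can activate the soluble ones. ADAMTS proteases trim procollagen and cleave large proteoglycans. TIMPs act by occupying the catalytic zinc, and not every TIMP blocks every one of these proteases. In bone, osteoblasts, osteocytes, hypertrophic chondrocytes and osteoclasts make some of them, while neutrophils, which mature in the adjoining marrow, store others in granules.

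Total estimated counts ran from 61092688 in KO 4 to 66774693 in KO 1. Ripk4 gave 0, 12, 0 and 0 counts in KO 1 to 4 and 10, 4, 0 and 4 counts in control 1 to 4. Every library was at or under a floor of 12 counts, which is 3 fragments where 1 fragment is worth about 4 counts (counting error only). A loss of Ripk4 was therefore not detectable at this depth (exact permutation test, two-sided, p = 0.657 with 4 libraries in each group), and the gene does not check the genotype labels. KO 4 lay farthest out on the first principal component, which held 36.5% of the variance, and results that rest on it are given with and without it. The share of counts from mitochondrial transcripts was 5.56% to 6.09% in KO and 6.17% to 16.1% in control libraries. Defining markers of osteoblasts and osteocytes were above 0 in every library, and so were those of neutrophils.

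Of the 46 genes, 35 had enough counts to be tested, namely 16 Mmp, 15 Adamts and 4 Timp genes. With the quasi-likelihood test of edgeR and Benjamini-Hochberg adjustment over all 20152 genes tested, 2 were higher in KO (Mmp8 and Mmp9) and 9 were lower (Mmp2, Mmp14, Mmp15, Mmp16, Mmp23, Adamts2, Adamts14, Adamts10 and Timp2). Among all genes tested, 5.31% were called higher and 5.03% lower, so the count of higher members was near the background and the count of lower members was above it. The median log2 fold change (KO over control) of the 35 was -0.65, against -0.02 for all genes tested. The 4 KO libraries lay wholly above the 4 control libraries for 3 members and wholly below them for 16, beside 9.21% and 11.5% of all genes tested. Adamts3, Adamts8 and Adamts18 passed the count filter in all 4 control libraries but not in all 4 KO libraries. Without KO 4, the members called were 2 higher and 14 lower, and the share of all genes called was 5.27% higher and 5.45% lower.

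**Figure D1:**
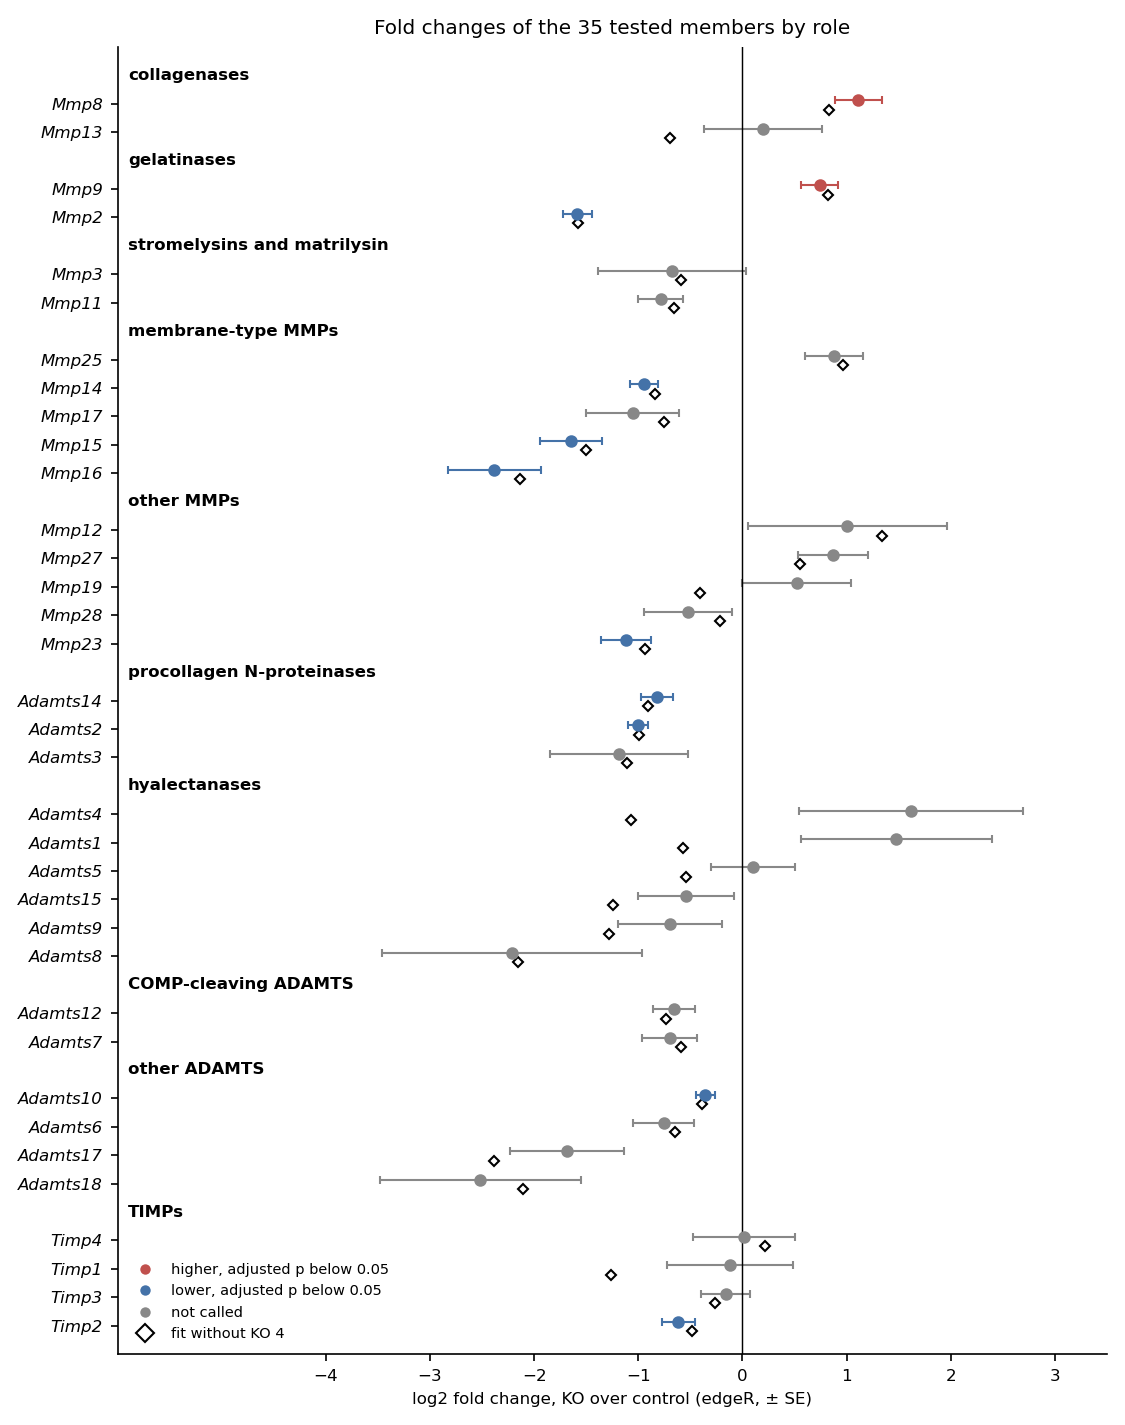
Log2 fold change, KO over control, of the 35 tested genes grouped by the role of the encoded protein. Circles with bars are edgeR estimates ± SE (red, higher; blue, lower; grey, not called) and open diamonds are the estimates without KO 4; the called genes Mmp8 (1.11) and Mmp9 (0.74) lie right of 0, and the 9 genes called lower lie between -2.38 for Mmp16 and -0.36 for Adamts10.

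The collagenases were represented by Mmp8 and Mmp13. Mmp8 encodes neutrophil collagenase, stored in the specific granules of neutrophils. Its level was 411, 397, 436 and 725 FPKM (fragments per kilobase of transcript, scaled to library depth) in KO 1 to 4 and 261, 258, 214 and 203 FPKM in control 1 to 4. All KO libraries lay above all control libraries, with KO 4 the highest and the other KO libraries close together. The difference was 2.16-fold (log2 fold change 1.11 ± 0.22 SE, edgeR adjusted p = 0.0206). The call was lost when control 2, control 3 or control 4 was left out, and the adjusted p over the 8 fits without 1 library ran from 0.00857 to 0.0647.

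Mmp13 encodes the collagenase of hypertrophic chondrocytes and osteoblasts. It was measured at 105, 148, 115 and 506 FPKM in KO 1 to 4 and at 96.2, 249, 172 and 277 FPKM in control 1 to 4. The groups overlapped, with control 1 the lowest and KO 4 the highest of the 8 libraries. No difference was called (log2 fold change 0.19 ± 0.57, adjusted p = 0.858), and the estimate was -0.69 without KO 4 and -0.04 without control 1. Of the remaining collagenase genes, Mmp1b was at 0 in every library and Mmp1a was at 0 in all but control 4.

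Mmp13 and Mmp8 belong to a cluster of 10 Mmp genes that spans 427.1 kb on chromosome 9 (GRCm38, 7272514 to 7699585), in the order Mmp13, Mmp12, Mmp1b, Mmp3, Mmp1a, Mmp10, Mmp8, Mmp27, Mmp20 and Mmp7. Their annotated starts lie 285.9 kb apart, and the genes between them stood at means of 0.86 FPKM or less in KO and 0.49 FPKM or less in control. The 250 bases upstream of the RefSeq start of each (GRCm38.p6, both on the plus strand, 5′ to 3′) are printed because these are the cluster's abundant collagenase genes, of which Mmp8 was called and Mmp13 was not. Capitals mark matches on either strand to 5 short motifs, namely AP-1 (TGANTCA), the TATA box (TATAAA), Runx (TGTGGT), PU.1 (GAGGAAGT) and the GC box (GGGCGG).
Mmp8 chr9:7558179-7558428: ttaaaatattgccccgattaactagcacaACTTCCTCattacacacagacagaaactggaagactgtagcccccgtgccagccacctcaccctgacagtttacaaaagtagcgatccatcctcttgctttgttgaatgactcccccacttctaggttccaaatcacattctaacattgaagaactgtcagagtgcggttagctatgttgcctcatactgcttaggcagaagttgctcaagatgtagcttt
Mmp13 chr9:7272264-7272513: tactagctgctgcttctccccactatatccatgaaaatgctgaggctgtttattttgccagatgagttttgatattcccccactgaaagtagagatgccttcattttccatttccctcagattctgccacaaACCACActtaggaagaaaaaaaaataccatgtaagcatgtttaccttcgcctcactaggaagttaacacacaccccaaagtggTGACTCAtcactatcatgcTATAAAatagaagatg
The Mmp8 window holds a PU.1 match at position -221 from the start and none of the other letters searched. In the Mmp13 window there is an AP-1 match at -35, a TATA box at -16 and a Runx match at -118. In the 250 bases upstream of the start in each of 32851 RefSeq windows, AP-1 letters were found in 6.75%, TATAAA in 12.4%, TGTGGT in 14%, GAGGAAGT in 2.44% and GGGCGG in 32.7%. Among the 32 members that matched by symbol, the numbers with a match were 8, 9, 6, 3 and 16 in that order. A member was counted if any of its windows matched, whereas the shares count each window. A match describes the letters and is not evidence of binding.

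The gelatinases moved in opposite directions. Mmp9 encodes gelatinase B, kept in neutrophil granules and also made by osteoclasts (chromosome 2, 164940780 to 164955850). Its level was 680, 631, 845 and 527 FPKM in KO 1 to 4 and 444, 519, 340 and 335 FPKM in control 1 to 4. The lowest KO library, KO 4, lay just above the highest control library, control 2. Mmp9 was 1.67-fold higher in KO (log2 fold change 0.74 ± 0.18, adjusted p = 0.0341). Its call depended on several libraries, being lost without KO 1, KO 3, control 1, control 3 or control 4, with adjusted p from 0.0266 to 0.0887 over the 8 fits.

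Mmp2 encodes gelatinase A, a product of mesenchymal cells including osteoblasts (chromosome 8, 92827291 to 92853420). KO 1 to 4 had 27.4, 22.1, 19.8 and 21.5 FPKM, and control 1 to 4 had 58.3, 72.5, 73.0 and 73.0 FPKM. Every KO library was below every control library, and the groups were well separated. The level in KO was 0.333 of that in control (log2 fold change -1.59 ± 0.14, adjusted p = 0.00234). This call held without any library, with adjusted p from 0.00497 to 0.0123. As a ratio within each library, Mmp9 was 24.8, 28.6, 42.6 and 24.6 times Mmp2 in KO 1 to 4 and 7.62, 7.16, 4.66 and 4.59 times in control 1 to 4.

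Among the membrane-type enzymes, Mmp14 is the surface activator of the Mmp2 proenzyme (chromosome 14, 54431612 to 54441265). It measured 19.1, 19.4, 19.1 and 13.02 FPKM in KO 1 to 4 and 32.9, 41.5, 28.7 and 35.3 FPKM in control 1 to 4. The groups did not overlap and KO 4 was the lowest library. Mmp14 was lower in KO (log2 fold change -0.94 ± 0.14, adjusted p = 0.0089), and the call held in all 8 fits without 1 library (adjusted p from 0.008 to 0.0309).

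The related membrane enzymes Mmp15 and Mmp16 were present at low levels. Mmp15 had 0.835, 0.389, 0.47 and 0.333 FPKM in KO 1 to 4 against 1.36, 1.78, 1.71 and 1.56 FPKM in control 1 to 4 (log2 fold change -1.64 ± 0.30, adjusted p = 0.0152). For Mmp16 the values were 0.466, 0.238, 0.23 and 0.102 FPKM in KO 1 to 4 and 1.57, 1.46, 1.67 and 0.783 FPKM in control 1 to 4 (log2 fold change -2.38 ± 0.45, adjusted p = 0.0169). Neither pair of groups overlapped, and both calls were lost only without KO 3, at adjusted p = 0.0507 for Mmp15 and 0.0556 for Mmp16, over ranges of 0.0096 to 0.0507 and 0.0174 to 0.0556. Mmp17, anchored to the membrane by a lipid, ranged from 0.124 to 0.82 FPKM in KO and from 0.869 to 1.11 FPKM in control and was not called (adjusted p = 0.164).

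Mmp25 encodes leukolysin, a lipid-anchored enzyme of neutrophils. KO 1 to 4 had 23.6, 26.6, 27.1 and 18.5 FPKM and control 1 to 4 had 21.2, 15.3, 8.78 and 8.13 FPKM. Control 1 lay above KO 4, so the groups overlapped, and the log2 fold change of 0.88 ± 0.28 was not called (adjusted p = 0.0825). It was called without control 1 (adjusted p = 0.0312, over a range of 0.0312 to 0.176 for the 8 fits). The ratio of Mmp25 to Mmp14 was 1.23 to 1.42 in KO and 0.23 to 0.645 in control libraries, so that these surface enzymes changed places in rank between the groups.

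Mmp23 has an unusual amino-terminal membrane anchor and a cysteine array and immunoglobulin-like domain in place of the usual hemopexin domain. Its level was 7.58, 7.13, 5.83 and 3.39 FPKM in KO 1 to 4 and 12.6, 13.04, 15.4 and 11.2 FPKM in control 1 to 4, without overlap. The log2 fold change of -1.11 ± 0.24 was called lower (adjusted p = 0.0253), but no longer without KO 3, control 2, control 3 or control 4 (adjusted p from 0.0185 to 0.074).

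The other Mmp genes tested were not called. Mmp11, stromelysin 3, which furin activates inside the cell, came closest, with 1.08 to 2.04 FPKM in KO and 2.45 to 3.09 FPKM in control (log2 fold change -0.78 ± 0.21, adjusted p = 0.0525), and was called without KO 2 (adjusted p = 0.0421, range 0.0421 to 0.14). Mmp3, stromelysin 1, ranged from 0.0811 to 0.772 FPKM in KO and from 0.333 to 0.747 FPKM in control. Mmp12, macrophage elastase, was at 2.77 FPKM in KO 1 and at 0.186 to 0.272 FPKM in the other KO libraries, against 0.159 to 0.761 FPKM in control, and its log2 fold change of 1.01 became -0.93 without KO 1. None of these 3 genes was called with all 8 libraries. Mmp27, the neighbour of Mmp8 in the cluster, lay at 0.846 to 1.71 FPKM in KO and 0.407 to 0.821 FPKM in control without overlap (log2 fold change 0.87 ± 0.34, adjusted p = 0.132). Mmp28, epilysin, ranged from 0.331 to 1.77 FPKM in KO and from 1.56 to 2.08 FPKM in control. Exons of Mmp11, Mmp12, Mmp19, Mmp28, Adamts4, Adamts7, Adamts8, Adamts9, Timp3 and Timp4 overlap genes on the opposite strand, and with the strand setting of the counts not given, reads of the shared bases cannot be assigned to either partner. None of the 11 called members has such an overlap in GENCODE M21.

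**Figure D2:**
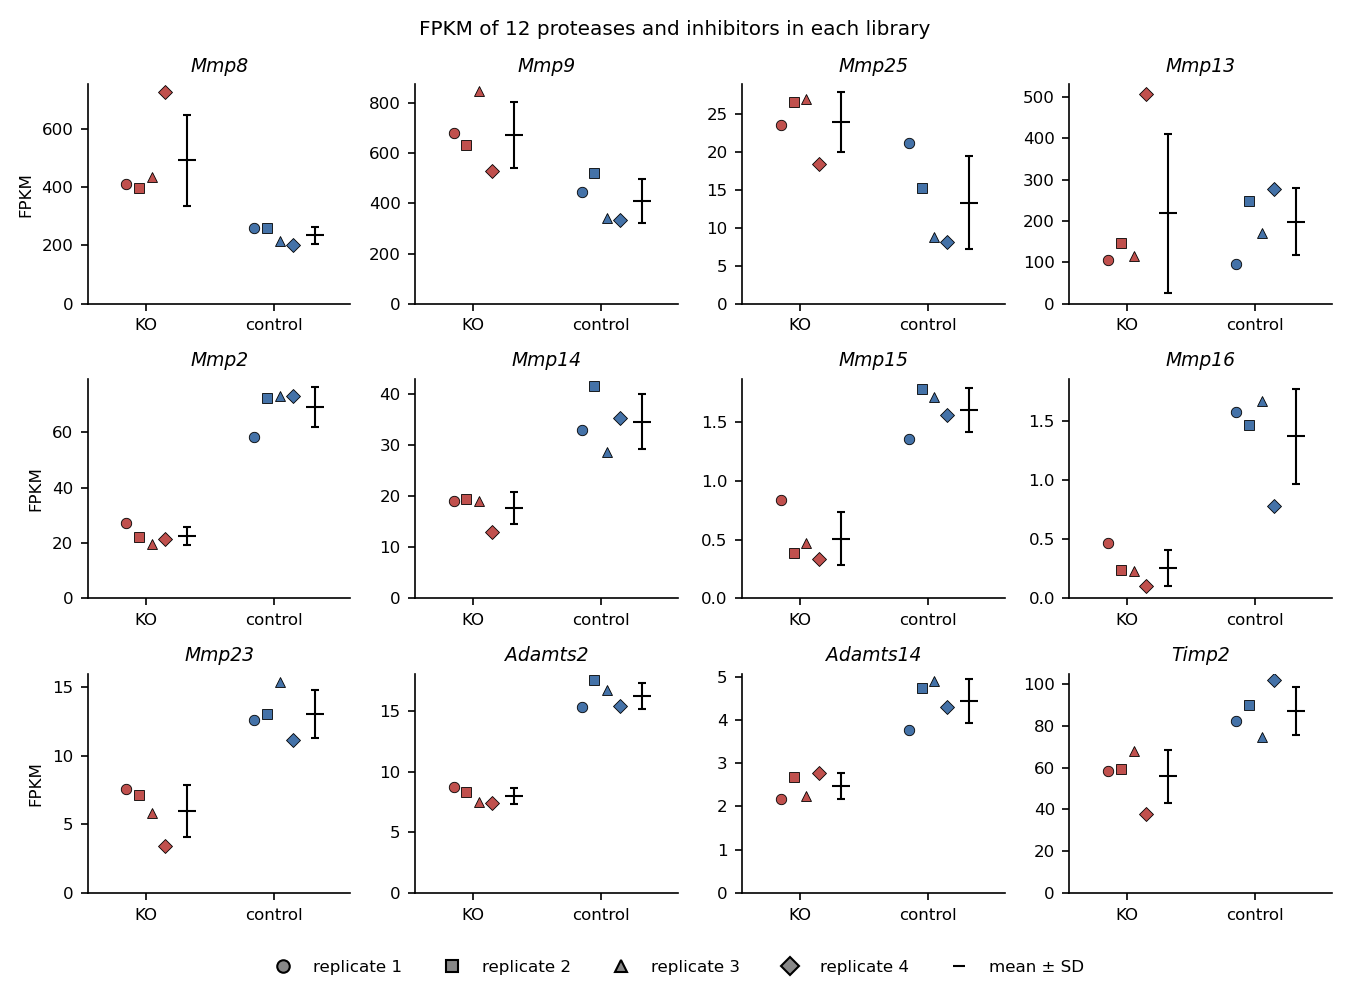
FPKM (linear axes from 0) of 12 genes in each KO library (red, left) and control library (blue, right), with symbols for replicates and bars for the mean ± SD (n = 4 each). Mmp8 and Mmp9 lie higher in KO without overlap, Mmp25 and Mmp13 overlap between groups, and the other 8 genes lie lower in KO without overlap.

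ADAMTS2, ADAMTS3 and ADAMTS14 are the procollagen N-proteinases, which remove the amino-terminal propeptides of fibrillar procollagens before fibrils assemble. Adamts2 (chromosome 11, 50602084 to 50807573) had 8.76, 8.3, 7.48 and 7.44 FPKM in KO 1 to 4 and 15.3, 17.6, 16.7 and 15.4 FPKM in control 1 to 4. The 4 libraries of each group lay close together and the groups did not overlap. It was lower in KO, at 0.499 of the control level (log2 fold change -1.002 ± 0.10, adjusted p = 0.00287), and stayed called in all 8 fits without 1 library (adjusted p from 0.00711 to 0.0167). Adamts14 had 2.17, 2.68, 2.24 and 2.77 FPKM in KO 1 to 4 and 3.76, 4.75, 4.89 and 4.3 FPKM in control 1 to 4, again without overlap. It was lower in KO as well (log2 fold change -0.82 ± 0.16, adjusted p = 0.0174), a call lost without KO 3 or control 2 (adjusted p from 0.0147 to 0.0561). Adamts3 was scarce, at 0.00957 to 0.164 FPKM in KO and 0.19 to 0.294 FPKM in control, and was not called (adjusted p = 0.282).

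Mmp14 and Adamts2 were, with Mmp2, the members called in every fit that left out 1 library, and their upstream windows (GRCm38.p6, plus strand, 5′ to 3′, same motifs in capitals) are printed for comparison with those of the cluster.
Mmp14 chr14:54431348-54431597: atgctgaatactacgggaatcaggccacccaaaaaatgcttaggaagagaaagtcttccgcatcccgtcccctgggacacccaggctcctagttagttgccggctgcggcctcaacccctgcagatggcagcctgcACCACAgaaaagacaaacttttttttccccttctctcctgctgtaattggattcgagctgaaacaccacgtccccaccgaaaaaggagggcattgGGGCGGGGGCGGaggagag
Adamts2 chr11:50601835-50602084: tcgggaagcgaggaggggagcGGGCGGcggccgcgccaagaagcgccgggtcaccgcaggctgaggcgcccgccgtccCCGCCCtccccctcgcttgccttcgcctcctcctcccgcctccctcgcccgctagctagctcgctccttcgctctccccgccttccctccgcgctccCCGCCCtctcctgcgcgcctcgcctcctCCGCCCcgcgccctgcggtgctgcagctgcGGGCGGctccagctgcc
Both hold GC boxes, with 5 matches in the Adamts2 window and none in those of Mmp8 and Mmp13. The Mmp14 window also has a Runx match at position -114, and neither window has TATAAA or AP-1 letters. Other members did not divide in this way. The window of Mmp25, a neutrophil gene, holds 2 GC box matches, and the windows of Mmp23, called lower, hold 0. No window was available for Mmp2 or Mmp9.

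The hyalectanases cleave the large proteoglycans aggrecan and versican. None of the 6 tested was called in the comparison of all 8 libraries, and in 4 of them KO 4 was the highest library. Adamts4 measured 1.42, 1.13, 0.693 and 23.3 FPKM in KO 1 to 4 and 1.88, 3.33, 1.99 and 1.96 FPKM in control 1 to 4. Adamts1 measured 3.11, 3.78, 1.82 and 36.9 FPKM in KO 1 to 4 and 3.23, 6.15, 3.76 and 4.14 FPKM in control 1 to 4. In both genes the highest library of the 8 was KO 4, 6.99 times the next highest for Adamts4 and 6.00 times for Adamts1. Their log2 fold changes were 1.62 ± 1.08 (adjusted p = 0.371) for Adamts4 and 1.48 ± 0.92 (adjusted p = 0.334) for Adamts1, and without KO 4 they were -1.07 and -0.57, neither called.

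Adamts5, the other main aggrecanase, had 2.81, 2.49, 2.04 and 7.48 FPKM in KO 1 to 4 and 3.88, 3.38, 3.13 and 3.96 FPKM in control 1 to 4. Adamts15 had 0.663, 0.497, 0.671 and 2.02 FPKM in KO 1 to 4 and 1.04, 1.7, 1.69 and 1.34 FPKM in control 1 to 4. KO 4 was again the highest library, though for Adamts15 only 1.19 times the next highest, control 2, while the other KO libraries lay below all controls. With all libraries neither was called (log2 fold changes 0.10 ± 0.40 and -0.54 ± 0.46), and without KO 4 both were called lower, at log2 fold changes of -0.54 for Adamts5 (adjusted p = 0.0347) and -1.25 for Adamts15 (adjusted p = 0.0202), over ranges of 0.0347 to 0.951 and 0.0202 to 0.696 in the 8 fits. Adamts9 ranged from 0.441 to 2.7 FPKM in KO and from 1.64 to 3.32 FPKM in control, and Adamts8 was at or below 0.17 FPKM in KO and between 0.0361 and 0.644 FPKM in control.

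Among the remaining ADAMTS genes, Adamts10, which binds fibrillin microfibrils, had 8.58, 9.2, 9.53 and 9.33 FPKM in KO 1 to 4 and 12.1, 12.5, 12.2 and 10.95 FPKM in control 1 to 4. The groups did not overlap, but the difference was small. It was called lower in KO (log2 fold change -0.36 ± 0.09, adjusted p = 0.0481), and that call was lost on leaving out any library other than KO 4 (adjusted p from 0.0437 to 0.126). Adamts17 lay at 0.0325 to 0.196 FPKM in KO and 0.224 to 0.448 FPKM in control, and Adamts18 at 0 to 0.146 FPKM in KO and 0.162 to 0.72 FPKM in control. Neither was called with all libraries (adjusted p = 0.0851 and 0.131), and both were called lower without KO 4 (adjusted p = 0.0163 and 0.0367, over ranges of 0.0163 to 0.2 and 0.0367 to 0.229). Adamts7 and Adamts12, which cleave cartilage oligomeric matrix protein, lay below control without overlap, at 0.332 to 0.743 against 0.817 to 0.93 FPKM and at 0.258 to 0.346 against 0.423 to 0.581 FPKM, and were not called (adjusted p = 0.126 and 0.0755). Adamts6, a relative of Adamts10, ranged from 0.289 to 0.598 FPKM in KO and 0.501 to 0.949 FPKM in control.

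Timp2 was the most abundant inhibitor in every library except KO 4, where Timp1 was. Timp2, which also bridges Mmp14 and the Mmp2 proenzyme at the cell surface, had 58.6, 59.2, 67.9 and 38.0 FPKM in KO 1 to 4 and 82.3, 90.0, 74.9 and 102 FPKM in control 1 to 4. The groups did not overlap, with KO 4 the lowest. Timp2 was lower in KO (log2 fold change -0.62 ± 0.16, adjusted p = 0.0444), and the call was lost on leaving out any library other than KO 4 (adjusted p from 0.0307 to 0.121). The ratio of Mmp14 to Timp2 within a library was 0.281 to 0.343 in KO and 0.346 to 0.461 in control, nearly touching.

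Timp1, the soluble inhibitor that binds the Mmp9 proenzyme, had 15.4, 14.1, 13.2 and 78.2 FPKM in KO 1 to 4 and 26.7, 36.2, 41.5 and 31.9 FPKM in control 1 to 4. KO 4 was the highest of the 8 libraries and the other KO libraries were the lowest. No difference was called over all libraries (log2 fold change -0.12 ± 0.61, adjusted p = 0.922). Without KO 4 the log2 fold change was -1.26 and Timp1 was called lower (adjusted p = 0.0116, range 0.0116 to 0.977 over the 8 fits). Timp3, the matrix-bound inhibitor of aggrecanases, ranged from 19.5 to 31.7 FPKM in KO and 22.4 to 43.7 FPKM in control (log2 fold change -0.16 ± 0.24, adjusted p = 0.703). Timp4 ranged from 1.01 to 3.64 FPKM in KO and 1.01 to 2.98 FPKM in control (log2 fold change 0.01 ± 0.49, adjusted p = 0.989).

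**Figure D3:**
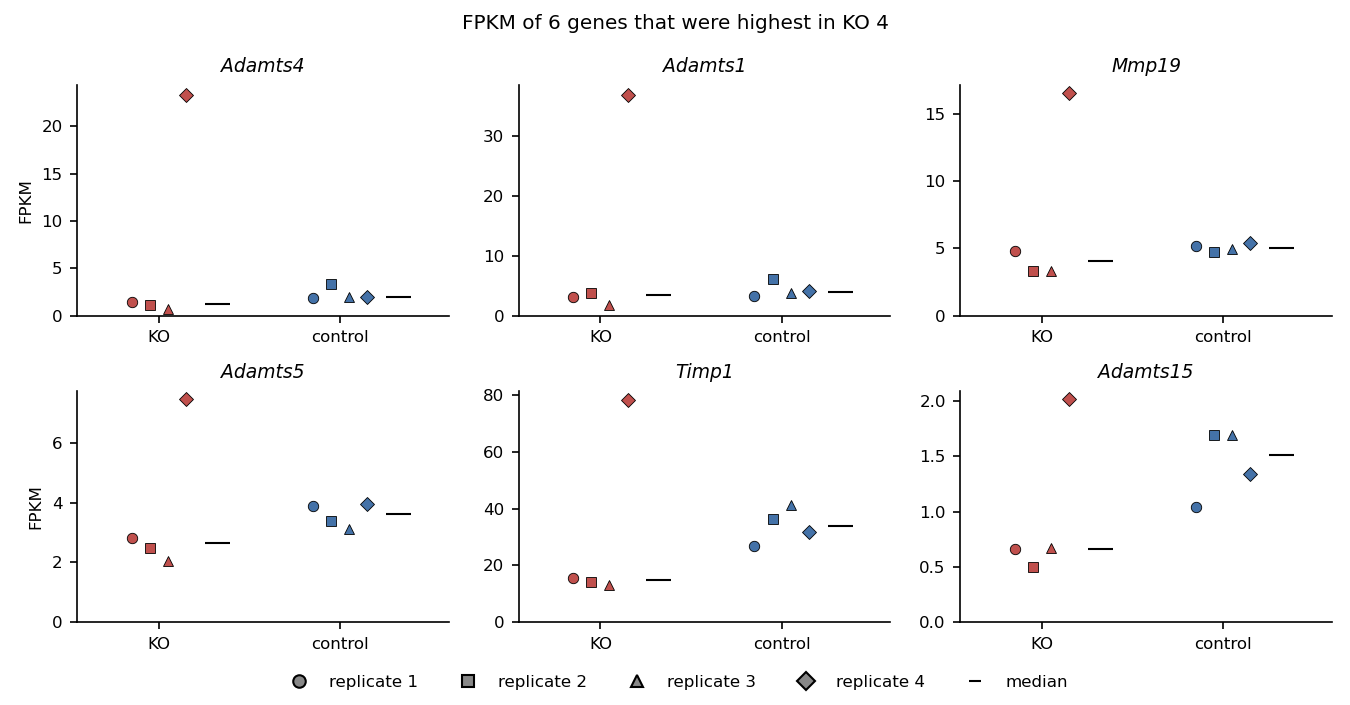
FPKM (linear axes from 0) of Adamts4, Adamts1, Mmp19, Adamts5, Timp1 and Adamts15 in each KO library (red, left) and control library (blue, right), with symbols for replicates and a dash for the median. KO 4 is the highest of the 8 libraries in each gene, for example 23.3 FPKM of Adamts4 against at most 3.33 FPKM elsewhere.

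KO 4 was the highest of the 8 libraries for 9 of the 35 tested members (Mmp8, Mmp13, Mmp19, Mmp27, Adamts1, Adamts4, Adamts5, Adamts15 and Timp1) and the lowest for 11. Over all genes tested it was the highest for 18.5% and the lowest for 27.6%. Mmp19, a broadly expressed basement membrane protease, had 4.8, 3.31, 3.3 and 16.5 FPKM in KO 1 to 4 and 5.15, 4.73, 4.98 and 5.4 FPKM in control 1 to 4, and its log2 fold change of 0.52 ± 0.52 became -0.41 without KO 4. KO 4 also had the lowest mean log2 FPKM of osteoblast markers (3.95, against 4.57 to 5.18 in KO 1 to 3 and 6.67 to 7.34 in control) and of osteocyte markers (1.09, against 2.39 to 3.003 in KO 1 to 3 and 3.31 to 4.35 in control). The part of these in its protease values was not tested.

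To separate proteases by source, Mmp8, Mmp9 and Mmp25 were taken as neutrophil-made, and Mmp2, Mmp13, Mmp14, Mmp16, Adamts1, Adamts2, Adamts4 and Adamts5 as osteolineage. In bulk RNA, fewer cells of a type and less RNA per cell cannot be told apart. For the counts of these groups and of the lists that follow, the shares of all genes tested were 5.31% called higher and 5.03% called lower. Of the neutrophil-made proteases 2 of 3 were called higher (median log2 fold change 0.88). Their summed level was 1115, 1055, 1308 and 1270 FPKM in KO 1 to 4 and 726, 793, 563 and 546 FPKM in control 1 to 4. Of the osteolineage proteases 4 of 8 were called lower, with a median of -0.42, and without KO 4 the count was 5 and the median -0.91. Their summed level was 168, 205, 166 and 615 FPKM in KO 1 to 4 and 213, 395, 301 and 411 FPKM in control 1 to 4, with overlap. Leaving Mmp13 out, the osteolineage sum was 51.2 to 110 FPKM in KO, with KO 4 the highest, and 117 to 146 FPKM in control, without overlap.

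As a share of the summed FPKM of all 42 proteases, the neutrophil-made group took 84.6%, 81.7%, 87.0% and 65.9% in KO 1 to 4 and 73.5%, 63.9%, 61.3% and 54.4% in control 1 to 4. The lowest KO share, in KO 4, lay below the highest control share, in control 1. The osteolineage group without Mmp13 took 3.4% to 5.69% in KO and 11.8% to 14.1% in control libraries, and Mmp13 alone 7.63% to 26.2% in KO and 9.74% to 27.5% in control. Mmp8, Mmp9 and Mmp13 together made up 90.8% to 92.8% of protease FPKM in KO and 79.2% to 82.8% in control, so the remaining 39 genes held a smaller part in each KO library than in any control library. Shares of a sum are not independent of each other.

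**Figure D4:**
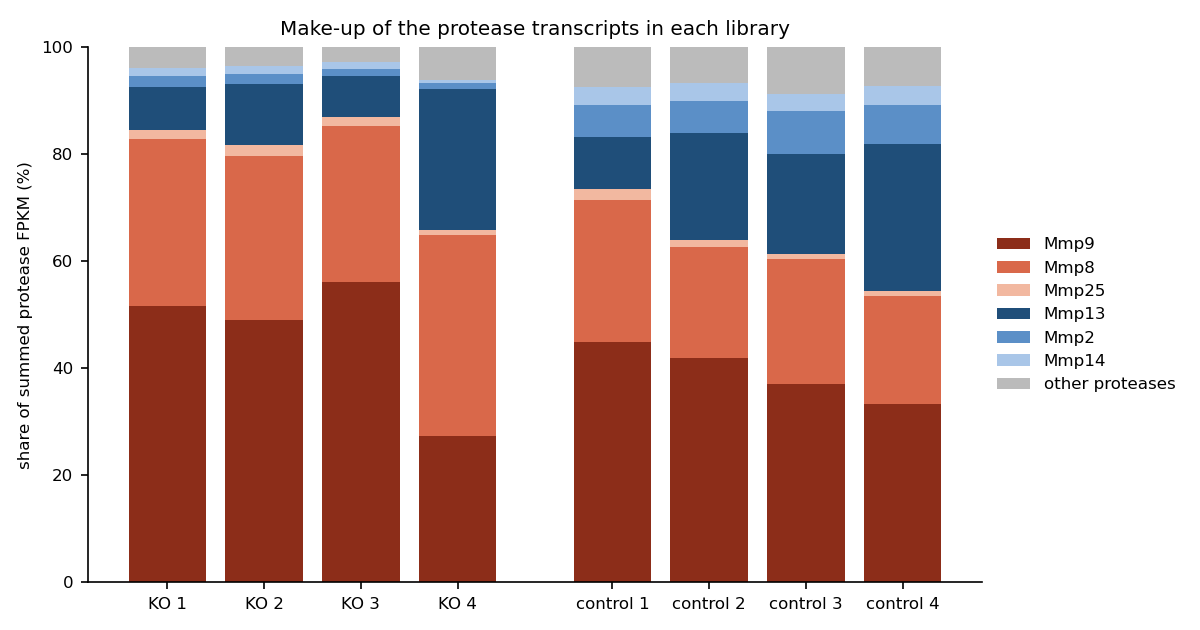
Share of the summed FPKM of the 42 proteases taken by 6 genes and by the rest, in KO 1 to 4 (left) and control 1 to 4 (right), in percent from 0 to 100. Mmp9, Mmp8 and Mmp25 (reds) together take 65.9% to 87.0% in KO and 54.4% to 73.5% in control, and Mmp13 (dark blue) takes its largest parts in KO 4 and control 4.

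Marker genes of the cells that could hold these proteases were compared in the same way. Of 18 neutrophil markers 12 were called higher and 0 lower, with summed levels of 65790 to 77150 FPKM in KO and 33040 to 46710 FPKM in control. Relative to the mean log2 FPKM of these markers, Mmp9 stood at -0.70 to -0.31 in KO and -0.63 to -0.34 in control, and Mmp25 at -5.54 to -5.13 in KO and -5.98 to -5.02 in control, with overlap. Set against the same markers, Mmp8 was at -1.28 to -1.23 in KO 1 to 3, -0.24 in KO 4 and -1.40 to -1.28 in control libraries. On this scale the groups overlapped for Mmp9 and Mmp25, and Mmp8 lay just above control in KO 1 to 3 and farther above it in KO 4.

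Osteoblast markers were called lower for 9 of 12, with summed levels of 588 to 1132 FPKM in KO and 3584 to 8785 FPKM in control, and osteocyte markers for 4 of 9, at 84.6 to 429 FPKM in KO and 420 to 1067 FPKM in control. Relative to the mean log2 FPKM of osteoblast markers, Mmp2 stood at -0.40 to 0.48 in KO and -1.15 to -0.48 in control, Mmp14 at -0.92 to -0.25 in KO and -2.50 to -1.53 in control, and Adamts2 at -2.05 to -1.05 in KO and -3.28 to -2.73 in control. On this scale the KO libraries of each gene lay above the control libraries, a difference that was not tested. Mmp13 stood at 1.54 to 5.03 in KO and -0.33 to 1.44 in control. Mmp16, at -7.23 to -6.28 in KO and -7.03 to -6.26 in control, overlapped between the groups on this scale.

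Markers of other cells that make these proteases gave the following counts. None of 10 osteoclast markers was called, at summed levels of 424 to 713 FPKM in KO and 635 to 1166 FPKM in control. Relative to the mean log2 FPKM of these markers, Mmp9 stood at 5.50 to 5.78 in KO and 4.29 to 5.03 in control, a difference that was not tested. Of 8 fibroblast and periosteum markers 5 were lower and 1 higher, at 50.0 to 101 FPKM in KO and 210 to 334 FPKM in control. Among 8 chondrocyte markers 2 were lower, at 6.07 to 33.5 FPKM in KO and 56.3 to 124 FPKM in control, and among 8 endothelial markers 3 were lower, at 76.8 to 104 FPKM in KO and 113 to 134 FPKM in control. Monocyte and macrophage markers (0 of 10 called, 403 to 606 FPKM in KO and 467 to 619 FPKM in control) and skeletal muscle markers (0 of 10, 198 to 1483 FPKM in KO and 123 to 3259 FPKM in control) overlapped. Of 8 B cell markers 3 were lower, at summed levels of 20.9 to 27.1 FPKM in KO and 22.5 to 27.9 FPKM in control. No marker of any list was at 0 in every library, and the part of cell make-up in the protease differences was not tested.

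Genes that switch the proteases on or clear them were followed in a list of 19 activators, other inhibitors and clearance receptors. With 3 called higher and 3 lower, the list had a median log2 fold change of -0.55. Higher in KO were Lcn2, the granule lipocalin that in human neutrophils is bound to gelatinase B, Plaur, the receptor for urokinase, and Furin, the convertase that removes propeptides of membrane-type Mmp and ADAMTS proteases. Furin had 16.2, 15.5, 18.5 and 24.1 FPKM in KO 1 to 4 and 12.9, 13.03, 8.38 and 7.998 FPKM in control 1 to 4 (log2 fold change 0.86 ± 0.21, adjusted p = 0.0391), a call lost without any library other than KO 2 (adjusted p up to 0.0977). Plaur ranged from 62.1 to 109 FPKM in KO and 28.7 to 52.7 FPKM in control (log2 fold change 1.05 ± 0.26, adjusted p = 0.038) and among the 8 fits was called only without KO 2 or control 1 (adjusted p up to 0.101). Lcn2, which is also among the neutrophil markers, ranged from 1368 to 1783 FPKM in KO and 644 to 1093 FPKM in control (log2 fold change 0.83 ± 0.17, adjusted p = 0.0239) and lost its call without KO 3, control 2 or control 3 (adjusted p up to 0.0681).

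Lower in KO were the procollagen C-proteinase Bmp1, its enhancer Pcolce, and tissue plasminogen activator, Plat. Pcolce had 15.7, 14.6, 11.01 and 7.72 FPKM in KO 1 to 4 and 37.2, 44.2, 47.6 and 33.2 FPKM in control 1 to 4 (log2 fold change -1.72 ± 0.23, adjusted p = 0.00763). Bmp1 had 12.2, 9.98, 8.69 and 8.49 FPKM in KO 1 to 4 and 19.1, 25.9, 23.1 and 19.2 FPKM in control 1 to 4 (log2 fold change -1.13 ± 0.16, adjusted p = 0.00846). Neither gene's groups overlapped, and both calls held in all 8 fits without 1 library, with adjusted p up to 0.0309 for Pcolce and 0.0325 for Bmp1. Tll1, a relative of Bmp1 chosen here after its values were seen, was scarce, at 0.00926 to 0.042 FPKM in KO and 0 to 0.0403 FPKM in control, and was not called (adjusted p = 0.656). Plat ranged from 0.408 to 0.655 FPKM in KO and 0.72 to 1.26 FPKM in control (log2 fold change -0.93 ± 0.24, adjusted p = 0.0449), a call lost without any library other than KO 4 or control 1 (adjusted p up to 0.127).

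The ADAMTS-like proteins share the ancillary domains of ADAMTS enzymes but lack the protease. Of 6 genes 2 were lower and 0 higher. Adamtsl1 ranged from 0.0922 to 0.259 FPKM in KO and 0.347 to 0.697 FPKM in control (log2 fold change -1.60 ± 0.34, adjusted p = 0.0239), and lost its call without KO 1, KO 3, control 2, control 3 or control 4 (adjusted p up to 0.0708). Adamtsl2 ranged from 0.184 to 0.666 FPKM in KO and 0.939 to 3.21 FPKM in control (log2 fold change -2.06 ± 0.44, adjusted p = 0.0248), and lost its call without KO 1, KO 3, control 1, control 2 or control 4 (adjusted p up to 0.0649). Adamtsl4, a fibrillin-binding member, had 4.22, 7.8, 5.1 and 20.5 FPKM in KO 1 to 4 and 3.03, 3.01, 3.74 and 3.39 FPKM in control 1 to 4 and was not called (log2 fold change 1.56 ± 0.49, adjusted p = 0.0794). Like Adamts1 and Adamts4, it was highest in KO 4, but its other KO libraries also lay above control. Adamtsl3, Adamtsl5 and Thsd4 overlapped between groups.

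Among 20 matrix substrates, 19 were tested, 7 were lower and 0 higher, with a median log2 fold change of -1.24. Bcan and Acan, named for this reason only, passed the count filter in all 4 control libraries but not in all 4 KO libraries. Bcan passed it in 1 KO library and Acan in 3. Neither was called, but both enter the median, with log2 fold changes of -3.99 and -1.32. Col1a1, Col1a2, Col2a1, Col3a1, Bgn and Dcn, the fibrillar collagen chains and small proteoglycans, had the smallest p-values. Col1a1 and Col1a2, which are also among the osteoblast markers, had log2 fold changes of -3.38 ± 0.49 and -3.18 ± 0.39 (adjusted p = 0.00889 and 0.00623). Col2a1 is likewise among the chondrocyte markers, and Col3a1 and Dcn are among the fibroblast and periosteum markers. The substrate and marker counts are therefore partly the same data. Col1a2 measured 156, 85.6, 76.0 and 82.0 FPKM in KO 1 to 4 and 802, 922, 1397 and 504.1 FPKM in control 1 to 4. Bgn, biglycan, had 89.5, 75.7, 78.0 and 55.4 FPKM in KO 1 to 4 and 204, 210, 211 and 152 FPKM in control 1 to 4 (log2 fold change -1.36 ± 0.17, adjusted p = 0.00677). All 6 calls held in every fit without 1 library. In KO, the fitted log2 differences of these collagen chains were thus larger in size than those of Adamts2, Adamts14, Bmp1 or Pcolce, and the difference between them was not tested.

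The 11 members not tested were Mmp1a, Mmp1b, Mmp7, Mmp10, Mmp20, Mmp21, Mmp24, Adamts13, Adamts16, Adamts19 and Adamts20. Mmp1b, Mmp20, the tooth enamel protease, and Adamts19 were at 0 in every library, and the highest value of any other was 0.13 FPKM, of Adamts20 in KO 2. At these depths a difference in them was not detectable.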

How the data were processed

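RNA-seq values from cortical bone of 4 KO and 4 control libraries were used. For each of 55401 genes, the authors deposited an estimated count and an FPKM value in every library; 0 columns of other samples were present. HISAT2 2.0.4, StringTie 1.3.4d, DESeq2 and GRCm38 are named without roles, per the submitters' processing notes; no source used here gives the strand setting. All deposited estimated counts were whole, and rounding left them as they were. Low values pile up at multiples of 4 (7854 values of 4 and 4839 of 8, against 2724 of 3 and 1566 of 5), though 4421 values were 1. On that basis 1 fragment was taken as worth about 4 counts, a factor that is only approximate. A count of 0 has a deposited FPKM of 0.0001, given here as 0. Total counts were 61092688 to 66774693, and floors cover counting error only. Of the 46 members, 39 had the same coordinates in GENCODE M21.

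Counts were tested with edgeR 4.0.16 in R 4.3.3 (two-sided quasi-likelihood test, TMM, no covariates, filterByExpr with its minimum count at 10), adjusted by Benjamini-Hochberg over all genes with a threshold of 0.05. Each SE was worked back from this test, as the size of the log2 fold change over the square root of the F statistic. For Ripk4, log2(FPKM + 0.5) was compared over all 70 assignments of the libraries (exact permutation test, two-sided). The scripts were tested on simulated data. The alternatives were RLE scaling, DESeq2 1.42.0, no filter, a mean of at least 1 FPKM, counts divided by 4, limma 3.58.1 on log2(FPKM + 0.5) or log2(FPKM + 0.1), a muscle score covariate, a replicate block and leaving out each library. A further alternative, leaving out control 3 and KO 4 together, was chosen after seeing the data. The members, the source, role, pathway and marker lists and the alternatives were chosen with earlier results of these data known. Genes named are Ripk4, every member and up to 6 genes with the smallest p of each pathway list. Sample titles do not say whether replicate numbers pair the libraries, and the main test treated them as unpaired. Promoter windows are RefSeq's on GRCm38.p6.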

Additional observations from a re-analysis of the deposited data

Results flagged for a closer look

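Within groups of 4 libraries, 13 of the 70 group values of the tested members had 1 library set apart from the other 3 by more than Dixon's 95% critical value (gap over range). The nominal rate is about 1 in 20 groups, and the share flagged over all genes tested was not worked out. The flags therefore cannot be read as particular to these members. KO 4 was the library set apart in 10 cases. Over all genes tested, KO 4 was the highest library for 18.5% and the lowest for 27.6%. It was high for Adamts4 (23.3 FPKM), Adamts1 (36.9 FPKM), Adamts5 (7.48 FPKM), Adamts15 (2.02 FPKM), Timp1 (78.2 FPKM), Mmp19 (16.5 FPKM), Mmp13 (506 FPKM), Mmp8 (725 FPKM) and Mmp27 (1.71 FPKM), and low for Mmp14 (13.02 FPKM). KO 1 was high for Mmp12 (2.77 FPKM). Among control libraries, control 2 was high for Adamts4 (3.33 FPKM) and control 1 was low for Mmp2 (58.3 FPKM).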

How the results depend on the processing

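All 11 called members kept their direction in every alternative that tested them (the filter at a mean of 1 FPKM leaves out Mmp16 and tested 10). Of the 11 calls, 11 held with DESeq2, with counts divided by 4 and without KO 4, 10 with RLE scaling, 9 with limma at either pseudocount and with the muscle covariate, 8 without a filter, 7 without both control 3 and KO 4, and 4 to 11 on leaving out 1 library. Sample titles do not say whether replicate numbers pair the libraries. Same-numbered deviations from the group means had correlations of 0.106, -0.173, 0.092 and -0.055. Those of differently numbered libraries ran from -0.143 to 0.189. With so few libraries these values cannot settle whether the numbers are pairs. With the replicate block, 0 members were called in either direction, and 28 genes higher and 28 lower over the whole table. DESeq2 called 3 members higher, adding Mmp25 (adjusted p = 0.0189), and 13 lower, adding Mmp11, Adamts12, Adamts17 and Adamts18 (adjusted p from 0.00448 to 0.0317), with 2048 genes higher and 2113 lower over the whole table. It gave no adjusted p for Timp1, Adamts1, Adamts4 and Mmp19, in each of which KO 4 was the highest library, so these were not judged. Members higher (2) became 1 without a filter, with limma at either pseudocount and without both control 3 and KO 4. Over the whole table, genes higher numbered 743 without a filter and 750 without both libraries. With limma they numbered 891 and 841 at pseudocounts of 0.5 and 0.1, against 1070 in the main test. Regulators higher (3) became 1 without a filter, 0 with the block and 0 without both libraries, and regulators lower (3) became 8 with DESeq2 and 0 with the block. Substrates higher (0) became 1 with DESeq2, and substrates lower (7) became 1 with the block. Leaving out 1 library gave 0 to 2 members higher and 3 to 14 lower, 0 to 3 regulators higher and 2 to 5 lower, and 0 to 1 substrates higher and 6 to 10 lower. Over the whole table the same fits called 398 to 1096 genes higher and 323 to 1134 lower. Log2 fold changes of uncalled members changed sign on leaving out 1 library for Timp1 (-1.26 to 0.13), Timp3 (-0.29 to 0.0541), Timp4 (-0.45 to 0.39), Adamts4 (-1.07 to 1.997), Adamts1 (-0.57 to 1.84), Adamts5 (-0.54 to 0.31), Mmp19 (-0.41 to 0.76), Mmp12 (-0.93 to 1.57) and Mmp13 (-0.69 to 0.44). Without both control 3 and KO 4 the values were -1.07 for Adamts4, -0.57 for Adamts1, -0.54 for Adamts5, -0.35 for Mmp19 and -0.69 for Mmp13. With the block they were -0.25 for Adamts4, -0.14 for Adamts5 and -0.0647 for Mmp13. Limma gave -0.11 and -0.14 for Adamts5 and -0.0857 and -0.0862 for Mmp13, at pseudocounts of 0.5 and 0.1, the muscle covariate gave -0.051 for Adamts5, and the filter at 1 FPKM gave -0.0047 for Timp4. Apart from fewer libraries or genes tested, the cause was not tested. Depth limits the 11 untested members and Ripk4.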

Other observations

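Among the substrates outside the naming rule, Vcan and Spp1 were chosen after their values were seen. Vcan encodes versican, a substrate of the hyalectanases, and had 2.15, 2.06, 2.6 and 9.39 FPKM in KO 1 to 4 and 1.37, 1.66, 1.31 and 1.84 FPKM in control 1 to 4. All KO libraries lay above control, with KO 4 the highest, and the difference was not called (log2 fold change 1.45 ± 0.51, edgeR adjusted p = 0.106). Among the 8 fits without 1 library, Vcan was called higher only without KO 4 (adjusted p = 0.0426, range 0.0426 to 0.207). The log2 fold change over these fits ran from 0.56 to 1.68. Spp1, osteopontin, had 436, 565, 561 and 1880 FPKM in KO 1 to 4 and 557, 1202, 811 and 964 FPKM in control 1 to 4, overlapping, and was not called (log2 fold change 0.02 ± 0.49, adjusted p = 0.987). Its log2 fold change ran from -0.76 to 0.25 over the 8 fits without 1 library, and it was called in none. Within the list of activators, Pcsk6, a convertase related to furin and likewise chosen after its values were seen, had 6.21, 7.54, 9.08 and 0.758 FPKM in KO 1 to 4 and 25.7, 26.0, 16.0 and 20.0 FPKM in control 1 to 4. Its log2 fold change of -1.87 ± 0.58 was not called (adjusted p = 0.0759) and was called without KO 4 (adjusted p = 0.00776, range 0.00776 to 0.147 over the 8 fits without 1 library).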
